A study of Mus musculus with 2 samples.

Results

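The 41 genes described here encode proteins that copy DNA or make and clean its building blocks, out of 32285 genes listed in the deposited counts. They were chosen by name and role, and all 41 had UMIs (molecular tags that mark captured transcripts) in the cells kept. They fall into 9 role groups, from the MCM helicase to chromatin assembly behind the fork. The study pooled leg bone and marrow cells (femur and tibia) of 3 INK-ATTAC males aged 24 months for 10x Chromium 3′ single-cell RNA sequencing, in 2 samples labeled as replicates 1 and 2. Cells bearing lineage antigens, the red cell antigen Ter-119 among them, were depleted on magnetic beads, and live CD45-negative cells were then sorted. INK-ATTAC mice carry a caspase transgene under the p16Ink4a promoter, which the drug AP20187 activates, and these mice were untreated. There was 1 group, with no young mice, no other genotype and no way to tell the pooled mice apart, so cell classes were compared within the pool.

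A dividing cell licenses its origins by loading the MCM helicase before S phase, then activates the helicase, unwinds the DNA, and copies both strands with polymerases held on by a sliding clamp. It needs a supply of deoxynucleotides at that time, and many genes for these steps are switched on together by E2F factors as cells enter S phase. Red cell precursors in the marrow divide several times while they fill with hemoglobin, whereas LEPR-positive stromal cells of adult marrow, which support blood formation, rarely divide.

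Replicate 1 held 116827845 UMIs in 10968 barcodes and replicate 2 held 120556381 in 11016, and 10928 barcodes were in both out of 11056 in either. The replicates were therefore taken to hold the same cells and summed per barcode, so their separate values are repeats on 1 pool and give no check across mice. They differed less than independent samples would (squared differences over summed counts 0.559, against 1), so a transcript may be counted in both, and summed UMIs are not a count of separate transcripts. Of these barcodes, 9573 had at least 200 genes and at most 20% mitochondrial UMIs, and 1483 did not. They formed 16 clusters, of which 7 were named erythroid from their markers, and 6400 cells (66.9% of those kept) were in these, although the labels call the sorted cells mesenchymal. The paper's own clustering of such pooled cells held fewer cells than were kept here. It does not list their barcodes, so the overlap with the erythroid cells is not known. The erythroid cells were divided by the share of their UMIs from 4 adult globin genes, with 1918 cells under 0.5%, 786 at 0.5 to 1%, 1622 at 1 to 2.5%, 1495 at 2.5 to 6% and 579 at 6% or more. Across these ranges Kit, the receptor of early precursors, fell from 32.6 to 0.734 CPM (UMIs scaled to the total of the class, so that 8176 CPM is 0.818% of its UMIs). The other classes were 145 megakaryocytes (Pf4 21935 CPM), 64 endothelial cells (Cdh5 582), 149 Sca-1 fibroblasts (Dcn 9986) and 2099 LEPR stromal cells (Lepr 1447, Cxcl12 20756). Not among these 9 classes were 46 plasma cells, with 1555 CPM of the 41 genes, and 2 unnamed clusters, with 7961 in 422 cells (called doublets 21.8%) and 1957 in 248 cells (globin 18.1% of UMIs). Median depth was 10237, 11045, 41549, 42078 and 33553 UMIs per cell over the globin ranges, 8848 in megakaryocytes, 3248.5 in endothelial cells, 8434 in fibroblasts and 4889 in LEPR stromal cells. Intervals (95%) cover counting error only. Since 3′ libraries count transcripts by their ends, levels of different genes carry no scaling for length.

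The summed level of the 41 genes was several times higher in erythroid cells than in stromal cells. It was 6690.1 CPM (6657 to 6723) at under 0.5% globin, 8176 (8122 to 8229.7) at 0.5 to 1%, 9138 (9104 to 9173) at 1 to 2.5%, 9449.6 (9414 to 9485) at 2.5 to 6% and 9135 (9074 to 9196) at 6% or more. Endothelial cells held 4535 CPM (4244 to 4841), megakaryocytes 3325 (3239 to 3412), fibroblasts 2186 (2088 to 2288) and LEPR stromal cells 1533 (1502 to 1565). All 5 erythroid ranges were thus above the other 4 classes, and only the intervals of the erythroid ranges at 1 to 2.5% and at 6% or more overlapped. The order of the other classes depended on the processing, since endothelial cells were below megakaryocytes with called doublets left out (2618 against 3146 CPM), with log-normalized clustering (1153 against 3008), as the mean of the CPM of single cells (1541 against 2442) and with cells thinned to 2000 UMIs (1531 against 2468). The replicates gave 8196 and 8156 CPM at 0.5 to 1% globin, 9108 and 9160.1 at 6% or more and 1534 and 1532 in LEPR stromal cells. Among the 9 classes all 41 genes were highest in an erythroid range, against 25.6% of all genes compared, and 36 were lowest in LEPR stromal cells, against 14.7%. Plasma cells, outside these classes, were below LEPR stromal cells for 17 of the 41, a count for which no share of all genes was taken. Rfc1, Pole, Slbp and Orc1 were lowest in fibroblasts, and Dctd had no UMI in endothelial cells, which allows up to 15.1 CPM at a floor of 3 counts. Outside the erythroid cells, 26 were highest in endothelial cells (against 21.9% of all genes), 14 in megakaryocytes (24.7%), and Pold1 in fibroblasts (15.6%). Without the cells that reached the erythroid median (described below), 36 were highest in megakaryocytes, 2 in endothelial cells, 2 in LEPR stromal cells and 1 in fibroblasts. Those cells were picked by the level of the members, and no share of all genes was taken without them. The counts without them therefore do not rank the classes.

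**Figure D1:**
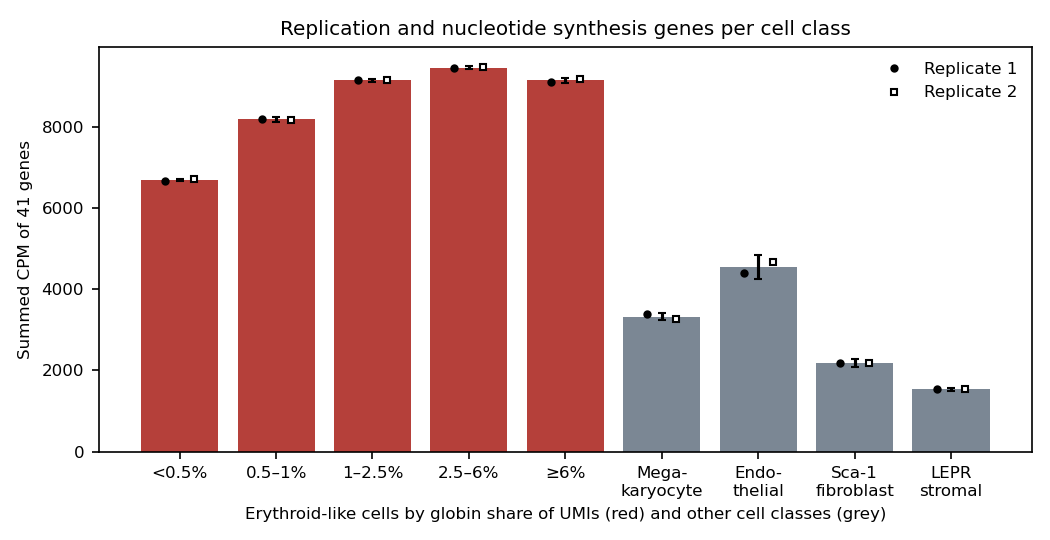
Summed level of the 41 replication and nucleotide synthesis genes (CPM, y axis) in each cell class (x axis): bars are the replicates summed, error bars 95% Poisson intervals on the mean of the replicates, and points the separate replicates. The 5 erythroid ranges lie between 6690.1 and 9449.6 CPM, above the other 4 classes at 1533 to 4535.

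Erythroid cells at 0.5 to 1% globin were compared with LEPR stromal cells, the largest class outside the erythroid cells. The sum was 5.33-fold higher in the erythroid cells, a log2 ratio of 2.42 (95% interval 2.38 to 2.45). Each of the 41 genes was at least 2-fold higher, against 18.4% of the 14420 genes compared, and 0 were at least 2-fold lower, against 45%. The median log2 ratio was 2.53 over the members and -0.74 over all genes compared. The log2 ratio of the sum was 3.09 with called doublets left out, 3.07 with a mitochondrial limit of 10%, 3.05 with log-normalized clustering, 3.02 at resolution 1.2 and 3.08 with the largest LEPR cluster alone. Under these alternatives the LEPR stromal class held 1702, 1154, 1333, 1264 and 1122 cells in place of 2099. As 81 of the 2099 were called doublets, leaving doublets out also changed which other cells were in the class.

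Transcripts of erythroid genes were found in every class and moved with this result. Whether they came from erythroid cells or were a class's own was not tested. A list of 10 erythroid genes other than globins held 6746, 7049, 7777, 8632 and 9562 CPM over the globin ranges, 1838 in megakaryocytes, 3358 in endothelial cells, 1601 in fibroblasts and 916 in LEPR stromal cells. All 10 were found in LEPR stromal cells, the most abundant being Car2 at 452 CPM and the least Alas2 at 12.1. The 3 LEPR clusters held 968, 2274 and 4424 CPM of the members, beside 429.9, 1555 and 3401 CPM of that list and median depths of 6487.5, 3324 and 1973 UMIs, so the members were highest where that list was highest. Per 1000 UMIs of the erythroid list there were 1159.9 member UMIs at 0.5 to 1% globin (886 to 1722 over its clusters with at least 20 cells), 1673 in LEPR stromal cells and 2252 in the largest LEPR cluster. In 12 of the 2099 LEPR stromal cells the members reached the erythroid median of 7808 CPM per cell, and 11 of these 12 were called doublets. Without these cells the LEPR stromal sum was 1225 CPM. That median was also reached by 3 of 64 endothelial cells (1 of them a called doublet), without which the endothelial sum was 1150.1 CPM in place of 4535, by 10 of 145 megakaryocytes (2 called doublets, 2437 CPM without the 10) and by 5 of 149 fibroblasts (3 called doublets, 1637 CPM without the 5). Since such cells were picked by the level of the members itself, each sum without them is lower by construction. These sums therefore do not rank the classes. Called doublets were 3.86% of LEPR stromal cells and 0.509% of erythroid cells at 0.5 to 1% globin. The part of erythroid RNA, doublets and depth in the result was not tested.

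Within the erythroid cells, the range at 6% or more globin was compared with that at 0.5 to 1%. Of the 579 cells at 6% or more, 413 were in the cluster led by globin genes, which held under 20 cells at 0.5 to 1%. Of the 786 cells at 0.5 to 1%, 277 and 184 were in the 2 erythroid clusters of lowest depth. In clusters with at least 20 cells in both ranges, the sum went from 6829 to 6949, 9091 to 9919 and 8939 to 9025 CPM. The part of cluster make-up was not tested. The sum was 1.12-fold higher at 6% or more, a log2 ratio of 0.16 (95% interval 0.15 to 0.17). Dctd and Ung were at least 2-fold lower, 2 of 41 members, against 23.4% of all genes compared, and 0 of 41 were at least 2-fold higher, against 6.8%. The count of lower members was 1 with globin UMIs left out of the total and 4 as the mean of the CPM of single cells. The median log2 ratio was 0.06 over the members and -0.40 over all genes. The interval lay above 0 for 17 members, below 0 for 10, and held 0 for 14, with no share of all genes taken for interval counts. Leaving globin UMIs out of the total adds 0.13 to each of these log2 ratios, with which the interval lay above 0 for 28 members, below 0 for 7 and held 0 for 6, and 7 members, Mcm3, Mcm6, Rfc1, Gins2, Rrm1, Dscc1 and Chaf1b, turned from below to above 0. The noncoding RNA Gm26917, which leads an erythroid cluster of median 5675 UMIs, was 3346, 1706, 639, 355 and 399 CPM over the ranges and so moved with globin. Without that cluster the log2 ratio of the sum was 0.15. The highest range was under 0.5% for 1 member (49.8% of all genes), 0.5 to 1% for 5 (21.9%), 1 to 2.5% for 9 (8.31%), 2.5 to 6% for 16 (6.96%) and 6% or more for 10 (13.1%). The members were thus highest late more often than genes at large, and 1.41-fold was the median distance between a member's highest and lowest range. With globin UMIs left out of the total, the sums were 6703, 8237, 9298, 9822 and 10053 CPM, with the highest at 6% or more in place of 2.5 to 6%. In that setting 21 members were highest at 6% or more, against 18.1% of all genes. Among cells past 6%, the sum was 9215 CPM at 6 to 10% globin (497 cells), 8776 at 10 to 15% (192), 7520.0 at 15 to 20% (56) and 4105 at 20% or more (74), in a count that also took in globin-rich cells of unnamed clusters. Median depth was 32473, 14006, 2091 and 2841.5 UMIs. Without globin in the total these 4 values were 9953, 9950.3, 9050.3 and 7254 CPM, and the part of depth was not tested.

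**Figure D2:**
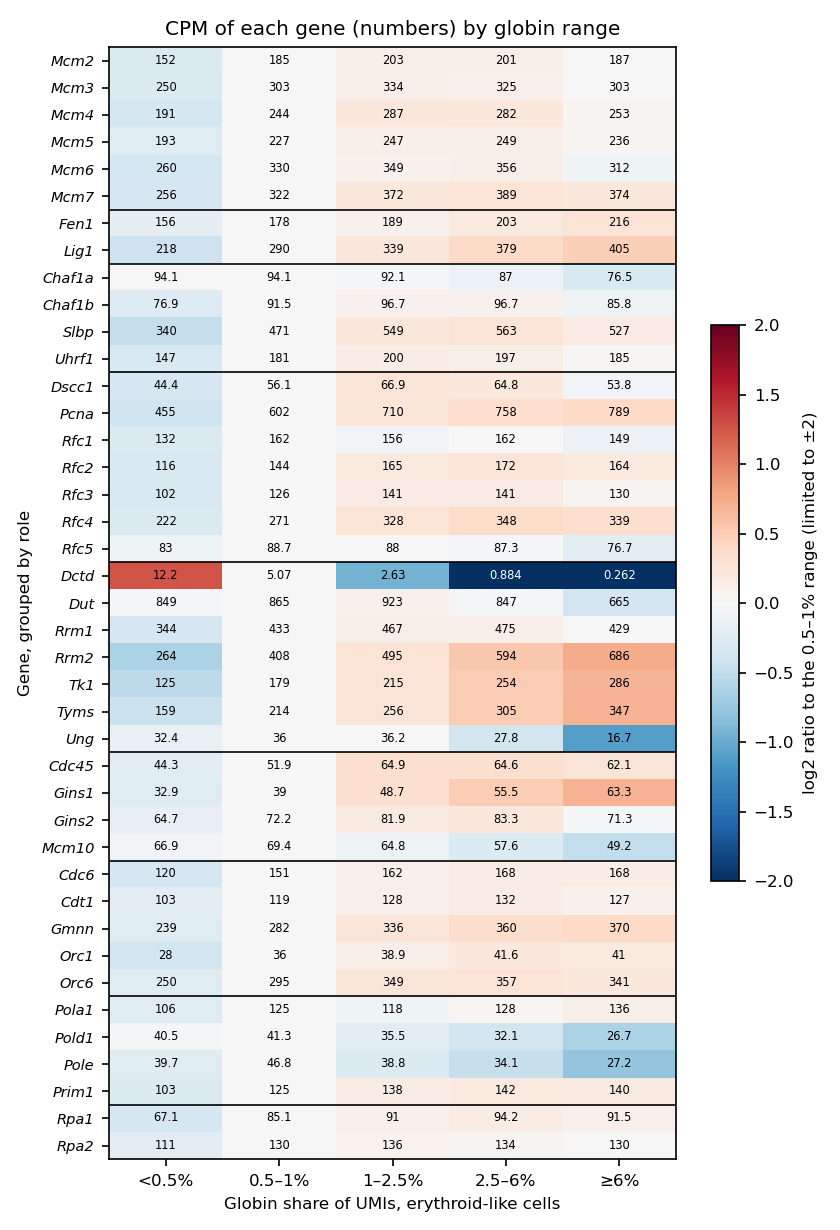
Level of each gene (numbers, CPM) in the 5 globin ranges of erythroid cells (x axis, globin share of UMIs), with genes on the y axis in role groups divided by lines. Color is the log2 ratio to the range at 0.5 to 1%, limited to 2 either way, and it is reddest to the right for Rrm2, Tyms, Tk1 and Gins1 and bluest for Dctd and Ung.

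The 6 MCM genes encode the subunits of the ring that becomes the replicative helicase. Together they held 1301, 1612, 1791, 1802 and 1664 CPM over the globin ranges in rising order, and 271 in LEPR stromal cells. Mcm7 was the most abundant at 389 CPM in the 2.5 to 6% range (replicates 391 and 386), and Mcm2 the least at 201 (replicates 199 and 204). With globin in the total, all 6 were highest at 1 to 2.5% or at 2.5 to 6%, and in the latter range the subunits of the ring all lay between these levels. Highest ranges depended on that total: with globin UMIs left out, 26 of the 41 members kept theirs. Mcm3 was 303 CPM at 0.5 to 1% globin and 41.1 in LEPR stromal cells, a log2 ratio of 2.89 (95% interval 2.70 to 3.08), the largest among the 6. Between 0.5 to 1% and 6% or more, Mcm7 had a log2 ratio of 0.21 (95% interval 0.14 to 0.28) and Mcm6 of -0.08 (95% interval -0.15 to -0.01), which turned positive without globin in the total, while the intervals of the other 4 held 0.

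Origin licensing is done by the origin recognition complex, of which Orc1 and Orc6 are subunits, with the loading factors Cdc6 and Cdt1, while geminin (Gmnn) binds and blocks Cdt1 after origins have fired. The 5 genes summed to 739.5, 884, 1014, 1059 and 1047 CPM over the globin ranges. Gmnn was 239, 282, 336, 360.4 and 370.1 CPM in these ranges and 41.5 in LEPR stromal cells, and Orc6 was 249.9, 295, 349, 357 and 341 and 53.8. Orc1 was the least abundant, at 36.0 CPM at 0.5 to 1% globin (replicates 35.7 and 36.2) against 4.91 in LEPR stromal cells, a log2 ratio of 2.87 (95% interval 2.33 to 3.47). The inhibitor thus rose with globin (log2 ratio 0.39 (95% interval 0.32 to 0.46)), whereas the interval of its target Cdt1 held 0 (log2 ratio 0.09 (95% interval -0.02 to 0.20)) and lay above 0 only without globin in the total. Cdc6 was 151 CPM at 0.5 to 1% and 168 at 6% or more.

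Cdc45 and the GINS subunits Gins1 and Gins2 join the MCM ring to make the active helicase, and Mcm10 helps to start it. These 4 were low, with 209, 233, 260.2, 261 and 246 CPM together over the ranges and 39.8 in LEPR stromal cells, and they went separate ways as globin rose. Gins1 went from 32.9 to 39.0, 48.7, 55.5 and 63.3 CPM, a log2 ratio of 0.70 (95% interval 0.52 to 0.88) between 0.5 to 1% and 6% or more. Mcm10 was 69.4 CPM at 0.5 to 1% (replicates 71.9 and 67.0) and 49.2 at 6% or more (replicates 48.9 and 49.5), a log2 ratio of -0.50 (95% interval -0.66 to -0.33). In both erythroid clusters of lowest depth, 1 of them led by Gm26917, Mcm10 was 101 and 113 CPM, against 30.5 to 66.4 in the other erythroid clusters. The part of these clusters in its lower level was not tested. Gins2 was the most abundant at 2.5 to 6%, with 83.3 CPM. Cdc45 had 51.9 CPM at 0.5 to 1% and 7.03 in LEPR stromal cells, a log2 ratio of 2.89 (95% interval 2.43 to 3.38).

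PCNA is the clamp that holds polymerases on DNA, replication factor C (Rfc1 to Rfc5) opens and loads it, and Dscc1 belongs to an alternative loader. The 7 genes summed to 1156, 1449, 1655, 1734 and 1702 CPM over the ranges, 702 in megakaryocytes and 342 in LEPR stromal cells. Pcna was 455, 602, 710.1, 758 and 789 CPM, against 143 in LEPR stromal cells, and its log2 ratio of 6% or more to 0.5 to 1% was 0.39 (95% interval 0.34 to 0.44). The large subunit Rfc1 (ENSMUSG00000029191, chr5:65261850-65335670, minus strand of GRCm38) was the member nearest to stromal levels. It was 162 CPM at 0.5 to 1% globin (replicates 162 and 161) and 80.0 in LEPR stromal cells (replicates 78.2 and 81.8), a log2 ratio of 1.02 (95% interval 0.87 to 1.17), whose interval reached under 2-fold and which was 0.98 in replicate 2 alone. The small subunit Rfc4, in contrast, had a ratio of 2.95 (95% interval 2.74 to 3.16), from 271 against 35.1 CPM, among the 5 largest with Rrm2, Cdc45, Mcm3 and Orc1. The order of these 5 changed with the processing, and their ratios moved with that of the sum: with called doublets left out they were 3.71 for Rfc4, 4.04 for Rrm2, 3.99 for Cdc45, 3.86 for Mcm3 and 4.00 for Orc1. Rfc3 was 126 against 30.9 CPM, a log2 ratio of 2.02. Rfc5 was 88.7 CPM at 0.5 to 1% and 76.7 at 6% or more. Rfc2 came nearest to erythroid levels in megakaryocytes, at 117 CPM against 172 at 2.5 to 6% globin. Dscc1, the least abundant, was 66.9 CPM at 1 to 2.5% and 7.88 in LEPR stromal cells.

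Replication protein A coats unwound DNA, and its subunits Rpa1 and Rpa2 were lowest under 0.5% globin among the erythroid ranges. Rpa2 was 111, 129.6, 136, 134 and 129.6 CPM over the ranges and 25.1 in LEPR stromal cells, and Rpa1 67.1, 85.1, 91.0, 94.2 and 91.5 and 23.5. The log2 ratio of erythroid to LEPR stromal cells was 1.85 (95% interval 1.59 to 2.12) for Rpa1, among the 5 smallest.

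Among the polymerase genes, the catalytic subunits for bulk synthesis were lower in the cells richer in globin. Pole, the catalytic subunit of the leading-strand polymerase, was 39.7, 46.8, 38.8, 34.1 and 27.2 CPM over the ranges (replicates 48.9 and 44.7 at 0.5 to 1% and 28.0 and 26.4 at 6% or more), a log2 ratio of -0.78 (95% interval -1.0 to -0.56). Pold1, that of the lagging-strand polymerase, was 40.5, 41.3, 35.5, 32.1 and 26.7 CPM, a log2 ratio of -0.63 (95% interval -0.86 to -0.40). Both were among the 5 lowest ratios of the 41 members, and neither passed 2-fold, though both did as the mean of the CPM of single cells (-1.17 and -1.23). Both moved with depth and with Gm26917. In the 2 erythroid clusters of lowest depth, the first of them led by Gm26917 and the second with a median of 11.9% mitochondrial UMIs (1.49 to 3.29% in the other 6), Pole was 82.0 and 74.6 CPM and Pold1 85.5 and 85.6, against 20.5 to 35.5 and 24.3 to 36.4 in the remaining 5. The log2 ratios were -0.72 and -0.55 without the cluster led by Gm26917, -0.70 and -0.55 with a mitochondrial limit of 10% and, over cells of at least 20000 UMIs, -0.62 and -0.36. Primase (Prim1), which makes the RNA primers, was 125 CPM at 0.5 to 1% and 140.5 at 6% or more, and Pola1, the polymerase that extends them, 125 and 136. Pola1 was also higher in the 2 erythroid clusters of lowest depth, at 269 and 240 CPM, against 60.2 to 138 in the remaining 5. The part of these clusters in the levels of Pole, Pold1 and Pola1 over the ranges was not tested. Against LEPR stromal cells, at 11.3 CPM, Pold1 had a log2 ratio of 1.86 (95% interval 1.49 to 2.25), among the 5 smallest.

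Fen1 trims the flaps between Okazaki fragments and Lig1 seals them, and both rose steadily with globin. Lig1 was 218, 289.8, 339, 379 and 405 CPM over the ranges (replicates 293 and 287 at 0.5 to 1% and 402 and 409 at 6% or more), a log2 ratio of 0.48 (95% interval 0.42 to 0.55). Fen1 was 156, 178, 189, 203 and 216 CPM, a log2 ratio of 0.28 (95% interval 0.19 to 0.37). In LEPR stromal cells they were 50.05 and 25.5 CPM.

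The genes for deoxynucleotide supply and uracil removal were the most abundant group in each class but LEPR stromal cells, where the clamp group was above them, and they held the members that differed most between the globin ranges in either direction. They summed to 1785, 2139.8, 2395, 2503 and 2429.6 CPM over the ranges, 1247 in endothelial cells and 318 in LEPR stromal cells. Rrm2 (ENSMUSG00000020649, chr12:24708241-24714146, plus strand), the small subunit of ribonucleotide reductase, which makes deoxynucleotides from ribonucleotides, was 264, 408, 495, 594 and 686 CPM. The replicates gave 413 and 403 at 0.5 to 1% globin and 681 and 692 at 6% or more, and the log2 ratio between these ranges, 0.75 (95% interval 0.69 to 0.80), was the largest of the 41, although Gins1 was above it in replicate 1 alone (0.76 against 0.72). The large subunit Rrm1 was 433 and 429 CPM in the same ranges, so the 2 subunits parted, with Rrm1 the higher at 0.5 to 1% and Rrm2 at 6% or more. Tyms, which makes dTMP from dUMP, was 159, 214, 256, 305 and 347 CPM (log2 ratio 0.69 (95% interval 0.62 to 0.77)), and Tk1, which salvages thymidine, 125, 179, 215, 254 and 286 (log2 ratio 0.68 (95% interval 0.59 to 0.76)). Both sources of thymidylate thus rose together with Rrm2. Against LEPR stromal cells, at 53.6 CPM, Rrm2 had a log2 ratio of 2.93 (95% interval 2.76 to 3.10).

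Dctd, Ung and Dut went the other way. Dctd (ENSMUSG00000031562, chr8:48099092-48153233, plus strand), the deaminase that makes dUMP from dCMP, was 12.2, 5.07, 2.63, 0.884 and 0.262 CPM over the ranges. That was 63 and 48 UMIs in the replicates at 0.5 to 1% and 3 and 2 at 6% or more, and the log2 ratio was -4.27 (95% interval -6.90 to -2.52). It was the sole member that was highest in the cells with the least globin, and with 1.19 CPM in LEPR stromal cells it was also the rarest. Ung (ENSMUSG00000029591, chr5:114130386-114139323, plus strand), the glycosylase that removes uracil from DNA, was 32.4, 36.0, 36.2, 27.8 and 16.7 CPM (replicates 37.1 and 34.8 at 0.5 to 1% and 16.1 and 17.3 at 6% or more), a log2 ratio of -1.10 (95% interval -1.38 to -0.84). Dut, which destroys dUTP and so keeps uracil out of DNA, was the most abundant member at 0.5 to 1%, with 849, 865, 923, 847 and 665 CPM over the ranges and a log2 ratio of -0.38 (95% interval -0.43 to -0.33). At 6% or more Pcna and Rrm2 were above it. With globin UMIs left out of the total, the ratio of Ung was -0.98, just short of 2-fold. Dut was 119 CPM in LEPR stromal cells.

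Chaf1a and Chaf1b, subunits of chromatin assembly factor 1, set histones on new DNA, Uhrf1 guides its methylation, and Slbp binds the stem-loop of histone mRNA. Slbp was the most abundant, at 339.7, 471, 549, 563 and 527 CPM over the ranges, and it was also the member most abundant in LEPR stromal cells, at 156 (replicates 155 and 157), so its log2 ratio was 1.60 (95% interval 1.5 to 1.70), among the 5 smallest. Chaf1a was 94.1, 94.1, 92.1, 87.0 and 76.5 CPM (log2 ratio of 6% or more to 0.5 to 1% -0.30 (95% interval -0.44 to -0.16)), and Chaf1b 76.9, 91.5, 96.7, 96.7 and 85.8. In both erythroid clusters of lowest depth Chaf1a was 155 and 162 CPM, against 41.5 to 88.8 in the other erythroid clusters. The part of these clusters in its lower level was not tested. Chaf1b overlaps Gm49617 on the same strand in GENCODE M21. Uhrf1 was 147, 181, 200.1, 197 and 185 CPM. The 4 genes summed to 658, 838, 938, 944 and 873 CPM, lowest under 0.5% globin, while Chaf1a was lowest at 6% or more.

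Counted per cell, the program was broad in erythroid cells. At their own depth, erythroid cells held UMIs of 24, 28, 37, 37 and 36 distinct members in the median over the ranges, megakaryocytes 6, fibroblasts 4, LEPR stromal cells 3 and endothelial cells 2. With every cell thinned to 2000 UMIs and shallower cells left out, the medians were 9, 11, 12, 13 and 13 over the ranges, 2 in megakaryocytes, endothelial and LEPR stromal cells and 1 in fibroblasts. The mean number at 2000 UMIs was 8.90 at under 0.5% globin, the lowest of the ranges. It was 3.84 in megakaryocytes, the highest of the classes outside the erythroid cells. At that depth, at least 5 distinct members were found in 735 of 756 erythroid cells at 0.5 to 1% globin (97.2%, Clopper-Pearson 95% interval 95.8 to 98.3) and in 107 of 1880 LEPR stromal cells (5.69%, 4.69 to 6.84). Megakaryocytes lay between, with 34 of 124 (27.4%, 19.8 to 36.2). With cells at their own depth, the tenth and ninetieth percentiles of the members' CPM per cell in megakaryocytes were 355 and 6828. That was a wider spread than the 4752 to 10198 of erythroid cells at 0.5 to 1% globin, also at their own depth. At 2000 UMIs, no member was found in 299 of the 1880 LEPR stromal cells (15.9%), 33 of 147 fibroblasts (22.4%), 9 of 49 endothelial cells (18.4%) and 16 of 124 megakaryocytes (12.9%).

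Erythroid cells with at least 5000 UMIs were also divided, within each globin range, into 4 equal bins by their share of UMIs from 30 mitosis genes, none of them a member. The members summed to 8466, 8738, 8484 and 8730.0 CPM from the lowest to the highest bin. Within the ranges, the change from the lowest to the highest bin went both ways: 6463 to 7016 CPM at under 0.5% globin, 8385 to 8291 at 0.5 to 1%, 9074 to 8688 at 1 to 2.5%, 9556 to 9286 at 2.5 to 6% and 9190.2 to 9210.4 at 6% or more. The median log2 ratio of the highest to the lowest bin was 0.11 over the members and 0.11 over all genes compared. Single members varied. Pola1 was 85.1 CPM in the lowest and 184 in the highest bin, a log2 ratio of 1.11 (95% interval 1.03 to 1.19), the largest, followed by Pole at 0.71 and Pold1 at 0.65. Ung was 47.9 CPM in the lowest and 12.4 in the highest bin, a log2 ratio of -1.95 (95% interval -2.17 to -1.74), and Dctd, Rfc3 and Dut followed that direction at -2.37, -0.82 and -0.67. By the share of 67 replication-dependent histone genes, the sums were 8153, 8594, 8838 and 8908 CPM, and 32 of 41 members were above 0 on the log2 scale, against 49.8% of all genes. The largest were Pola1 at 0.75, Cdc6 at 0.63 and Chaf1a at 0.53. Median depth in the highest bin was 10928 UMIs by mitosis and 9636 by histones, against 39139 and 36879 in the lowest. By mitosis, the highest bin was shallow only below 2.5% globin (medians 8244, 8063 and 9868.5 UMIs, against 44998.5 and 36974 in the ranges above). Gm26917 also moved with the bins, for example from 312 to 5616 CPM by mitosis at 0.5 to 1% globin. The part of depth and of these cells in the result was not tested.

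Other genes of the same pathways gave the setting for the members. Of 44 other replication genes, 35 were at least 2-fold higher in erythroid cells at 0.5 to 1% globin than in LEPR stromal cells, against 18.4% of all genes, and Pold4 was at least 2-fold lower, against 45%, and 39 were highest in an erythroid range, against 25.6%. The 3 most abundant were Nasp, a histone chaperone (562 CPM at 0.5 to 1%), Supt16, a subunit of the FACT complex (452), and Top1, a topoisomerase (447). The other 5 were highest elsewhere. Pold4, an accessory polymerase subunit, was highest in megakaryocytes (64.7 CPM against 9.91 at 0.5 to 1%), as was Chtf8 (6.10, 95% interval 2.99 to 11.1). Orc4 (53.7) and Mcm9 (21.8) had their highest values in LEPR stromal cells, and Mcm8 (20.1, 95% interval 5.47 to 51.4) in endothelial cells. The intervals of Chtf8 and Mcm8 held their levels at under 0.5% globin (4.59 and 15.3). Of 36 other nucleotide synthesis genes, Tymp was not listed by that name, 27 of the other 35 were at least 2-fold higher and 4 lower in erythroid cells, against the same 18.4% and 45%, and 14 were at least 2-fold lower at 6% or more than at 0.5 to 1% globin, against the 23.4% of all genes. Their median log2 ratio between these ranges was -0.87, against 0.06 for the members and -0.40 for all genes compared. Mthfd1, a folate enzyme, fell from 199.8 to 43.2 CPM from the lowest to the highest globin range, and Impdh2, of guanine nucleotide synthesis, from 346 to 154.

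The 3 most abundant genes of that list were Nme1 (664 CPM at 0.5 to 1%), a nucleoside diphosphate kinase, Dtymk (400.3), the kinase that follows thymidylate, and Impdh2 (324). Samhd1, which breaks down deoxynucleotides, was the reverse of the members, at 318 CPM in LEPR stromal cells and 38.6, 40.8, 36.7, 33.0 and 27.8 over the globin ranges. Tk2 (16.7), the mitochondrial thymidine kinase, and Ctps2 (17.7) also had their highest values in LEPR stromal cells. Rrm2b, the reductase subunit of resting cells, was 26.7 CPM in LEPR stromal cells (95% interval 22.7 to 31.2) and 8.73 at 0.5 to 1% globin (7.06 to 10.7). Endothelial cells had higher values of Rrm2b (30.1 CPM, 95% interval 11.1 to 65.6), Dhodh (15.1, 3.11 to 44.0) and Impdh1 (47.7, 22.4 to 89.0), but these rest on 12, 6 and 19 UMIs over the replicates, and their intervals held the level of the class that came next. LEPR stromal cells thus held more of the resting-cell forms Rrm2b and Tk2 than erythroid cells did, while Rrm2 and Tk1 were the reverse. Nme2 (955), Cmpk1 (182) and Shmt1 (10.2) were highest in megakaryocytes. Of 13 genes for E2F factors, their partners and pocket proteins, 11 were at least 2-fold higher in erythroid cells (18.4% of all genes), and E2f5 and Rbl2 at least 2-fold lower (45% of all), with 18.3 and 55.5 CPM in LEPR stromal cells. The most abundant were E2f4 (194 CPM at 0.5 to 1%), Tfdp2 (146) and Tfdp1 (129.9). E2f2 was 44.5, 91.8, 111, 145 and 186 CPM over the ranges. All 30 mitosis genes were at least 2-fold higher in erythroid cells, against 18.4% of all genes, led by Mki67 (1410.5 CPM), Top2a (717) and Birc5 (423).

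As a description only, the 250 bases before the members' RefSeq starts were searched on both strands in RefSeq promoters (GRCm38.p6), which matched 34 of the 41 members with 41 promoters. For 30 of the 41 the bases that follow lay in a GENCODE M21 transcript of the gene. The motifs were TTTGGCGC, TTTCCCGC and TTTCGCGC, forms of the E2F site that can overlap each other, CCAAT, the core of the NF-Y site, and TTTGAA, the CHR element of cell cycle genes. Any of the E2F forms was in 8 of 41 member promoters (19.5%), against 1.53% of 32851 promoters of all genes. CCAAT was in 25 (61.0%, against 33.8% of all), and TTTGAA in 3 (7.32%, against 16.0%). E2F matches were in promoters of Cdc6, Mcm5, Mcm6, Mcm7, Orc1, Pola1, Rfc3 and Uhrf1. CCAAT was also in 7 of these 8 promoters, against 199 of the 504 with E2F matches among all promoters. Those of Mcm5, Mcm6 and Mcm7 with E2F matches were not among the 30, and the Mcm7 window lay in annotated exons over all its 250 bases. The promoters of Mcm5, Mcm6, Pola1 and Uhrf1 (the second of its 2) are shown since they are those with both kinds of match and no base in an annotated exon, and that of Mcm3, the MCM gene with the largest ratio, since it holds CCAAT alone. They lie at chr8:75109259-75109508 (plus strand), chr1:128359706-128359955 (minus), chrX:93632156-93632405 (minus), chr17:56304063-56304312 (plus) and chr1:20820313-20820562 (minus), are written 5′ to 3′ along the gene, and have the matches in capitals.
Mcm5: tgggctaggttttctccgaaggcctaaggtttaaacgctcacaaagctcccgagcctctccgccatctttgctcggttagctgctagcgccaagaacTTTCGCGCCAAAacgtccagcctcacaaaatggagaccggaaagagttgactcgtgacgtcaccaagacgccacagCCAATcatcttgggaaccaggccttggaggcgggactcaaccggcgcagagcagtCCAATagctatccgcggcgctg
Mcm6: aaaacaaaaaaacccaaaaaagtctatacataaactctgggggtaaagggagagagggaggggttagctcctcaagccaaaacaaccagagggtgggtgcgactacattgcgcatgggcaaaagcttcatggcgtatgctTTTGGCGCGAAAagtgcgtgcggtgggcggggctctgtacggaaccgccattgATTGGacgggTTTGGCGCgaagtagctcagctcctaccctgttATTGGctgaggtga
Pola1: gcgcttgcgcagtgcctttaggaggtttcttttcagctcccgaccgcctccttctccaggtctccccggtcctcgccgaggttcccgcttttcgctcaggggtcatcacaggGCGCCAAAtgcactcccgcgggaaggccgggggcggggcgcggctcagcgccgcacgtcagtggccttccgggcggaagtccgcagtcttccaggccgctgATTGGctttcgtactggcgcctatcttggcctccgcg
Uhrf1: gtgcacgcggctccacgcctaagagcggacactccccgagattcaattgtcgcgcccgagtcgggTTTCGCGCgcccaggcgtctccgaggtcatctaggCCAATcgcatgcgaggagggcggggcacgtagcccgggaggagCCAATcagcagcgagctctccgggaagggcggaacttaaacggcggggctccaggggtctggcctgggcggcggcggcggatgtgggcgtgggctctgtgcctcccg
Mcm3: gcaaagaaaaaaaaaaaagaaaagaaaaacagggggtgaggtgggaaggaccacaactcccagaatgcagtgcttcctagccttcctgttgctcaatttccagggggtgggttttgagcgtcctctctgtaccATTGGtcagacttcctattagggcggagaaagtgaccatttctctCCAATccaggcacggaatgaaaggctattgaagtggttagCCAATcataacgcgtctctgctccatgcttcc
A run of capitals in Mcm5 and in Mcm6 holds overlapping E2F forms on opposite strands. The letters are a description of these windows, and binding was not measured.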

How the data were processed

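The paper describes a pool of mice, and neither it nor the labels say how the 2 replicates were made. Another legend, on cells positive for the p16Ink4a gene, gives 2 independent animals. Taking the replicates as 1 pool rests on their shared barcodes. The authors aligned reads to mm10 and counted with Cell Ranger, and the deposited values are raw counts of UMIs for each gene and barcode. The version in the matrix header (3.0.2) differs from that in the methods. The replicates shared barcodes and were summed; a barcode needed 200 genes and at most 20% mitochondrial UMIs, and called doublets were kept. Cells were clustered in R 4.3.3 by Seurat 5.3.0 and sctransform 0.4.2 (3000 variable genes, 30 components, resolution 0.8), and clusters were named from 17 marker lists. Python 3.11.15, scipy 1.17.1 and scanpy 1.11.5 (Scrublet, expected rate 8%) gave sums, intervals and doublets. On the mean of the replicates, levels have exact Poisson and ratios exact conditional binomial 95% intervals, and shares of cells have exact Clopper-Pearson ones. Genes with at least 20 UMIs over the classes were compared. A class with 0 UMIs was set to 3 counts, which also let such a class count as the higher; without that, 2.97% of genes in place of 6.8% were at least 2-fold higher at 6% or more globin, 21.8% in place of 23.4% lower, and 18.2% in place of 18.4% higher in erythroid than LEPR stromal cells. Gene coordinates are from GENCODE M21 (GRCm38), where all 41 IDs were found.

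Members and lists were chosen with earlier results of these data known. Named in full are the extremes of each role group, the 5 largest and 5 smallest ratios, members by their highest class, and, of other lists, the 3 most abundant genes and those highest outside erythroid cells. Chosen after seeing the data were Mthfd1, E2f2, Gm26917, the globin ranges past 6%, counts by highest range, cells at the erythroid median, ratios per erythroid UMI, values per cluster and the window of 250 bases. Alternatives were other filters, doublets left out, each replicate, totals without globin, means of cells, thinning, and other clustering.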

Additional observations from a re-analysis of the deposited data

How the results depend on the processing

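No paired analysis was possible because the study had 1 group of pooled mice, and for the same reason no test was made. Under every alternative run, the summed ratio of erythroid cells at 0.5 to 1% globin to LEPR stromal cells stayed above 0 on the log2 scale, from 2.42 as reported. It was 3.07 with a mitochondrial limit of 10%, 2.97 with a minimum of 500 genes, 3.09 with called doublets left out, 2.64 as the mean of the CPM of single cells, 2.72 with cells thinned to 2000 UMIs, 2.92 with the members and other cell division lists left out of clustering, 3.05 with log-normalized clustering and 3.02 at resolution 1.2. Chosen after seeing the data, it was 3.08 with the largest LEPR stromal cluster alone and 2.77 with cells thinned on replicate 1 alone. The cause was not tested, though the LEPR stromal class varied from 1122 to 2099 cells with the setting. The replicates alone gave 2.41 to 2.42. Of the 41 members, 40 to 41 were at least 2-fold higher under the alternatives run. Rfc1 fell short at a log2 ratio of 0.98 in replicate 2 alone, 0.95 without the clusters led by Gm26917 and, chosen after seeing the data, 0.87 with erythroid cells of at least 20000 UMIs, and with cells thinned on replicate 1 alone 40 members also passed.

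The summed ratio of 6% or more to 0.5 to 1% globin, 0.16 as reported, was 0.29 with globin UMIs left out of the total, 0.21 as the mean of the CPM of single cells, 0.19 with cells thinned, 0.13 with unnamed clusters nearest the erythroid list added and, chosen after seeing the data, 0.18 with cells thinned on replicate 1 alone; the replicates alone gave 0.15 to 0.17. Members at least 2-fold lower numbered 1 with globin UMIs left out of the total, 4 as the mean of the CPM of single cells and 4 with cells thinned on replicate 1 alone, against 2 as reported; the cause was not tested. Of 145 summed levels of single classes, 89 stayed within the reported interval and 56 did not, and of 330 ratios of single members, 231 did and 99 did not, with 0 changes of sign among the called ones. Depth limits rare members such as Dctd, with 5 UMIs over the replicates at 6% or more.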
